A study of Mus musculus with 3 samples.

Results

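The genes described here encode the protein import machinery of mitochondria, the pores of the outer mitochondrial membrane and the Slc25a family of carriers. Members were taken by symbol: names starting with Tomm or Timm and a digit, names starting with Slc25a, and Samm50, Mtx1, Mtx2, Vdac1, Vdac2, Vdac3, Grpel1, Pam16 and Dnlz, without pseudogene symbols. This gave 82 of the 24982 gene symbols in the files: 34 import and pore genes, 47 carriers and Tomm6os, an RNA transcribed opposite Tomm6. Expression was measured by RNA-seq in LKS cells of mouse bone marrow, the population without lineage markers and with Kit and Sca1 on the surface, which holds haematopoietic stem cells and early progenitors. The libraries were 2 from wild-type (WT) recipients and 1 from recipients with both copies of the CD73 gene deleted (the KO library, whose own label names no gene, so that CD73 is taken from the description of the series). The labels also use the name LLP cells, which they do not explain. The sources used here give no strain or age, and do not say what the recipients had received, if the cells were those of a donor or of the host, or if animals were pooled. Nor do they say that the WT pair stems from different mice, so the spread between these libraries, which every p-value rests on, may be technical.

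Most mitochondrial proteins are made in the cytosol. The TOM complex of the outer membrane recognises and admits them, the SAM complex folds barrel-shaped proteins into that membrane, and small TIM chaperones carry hydrophobic proteins across the space between the membranes. TIM23 passes proteins with a presequence through the inner membrane with the help of a motor on its inner face, and TIM22 inserts the carriers themselves. The carriers exchange nucleotides, phosphate, organic acids, amino acids and iron across the inner membrane, while VDAC pores let small metabolites through the outer one. Blood stem cells are known for relying little on respiration while at rest and more on it as they divide and differentiate.

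Gene counts totalled 361638 in the first WT library, 324954 in the second and 264704 in KO, the order in which 3 values are given throughout. Nt5e, the gene of CD73, had 0 counts in all 3 libraries, so it could not check the KO label. Kit (187, 207 and 147 counts), Ly6a, which encodes Sca1 (60, 19 and 36), and Cd34 (230, 194 and 110) were detected in every library. The members together drew 1901, 1837 and 1139 counts, and their most abundant gene reached 156. At least 1 count was found for 61, 57 and 53 members, 44 had a count in all 3 libraries and 15 had none anywhere. A count of 0 allows up to 3 counts, which is 8.30, 9.23 and 11.3 CPM (counts scaled to the same total of gene counts) in the 3 libraries. This limit and all ratio intervals cover counting error only and leave out the spread between libraries. The sources also name no molecular identifiers by which molecules could be counted. Over the 55 members with at least 10 counts in the WT pair, the WT libraries differed by more than counting error, with a chi-square of 7.78 per gene.

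Markers of the gate and of other cells differed between the libraries. A list of 8 gate and progenitor genes summed to 2367, 2600 and 1602 CPM. Mature neutrophil markers summed to 830, 1148 and 378 CPM, with 0 of 10 at 0 throughout. The monocyte, macrophage and dendritic list summed to 218, 529 and 1878 CPM, with Mrc1 and Siglech at 0 in every library. Its KO sum came mostly from the class II genes H2-Ab1 (24, 11 and 201 counts), H2-Aa (0, 9 and 106) and H2-Eb1 (19, 21 and 156). Lyz2 (32, 112 and 20), Cd68 (0, 11 and 0), Adgre1 (0, 4 and 0) and Itgax (4, 0 and 0) were lower in KO than in at least 1 WT library, and Csf1r had 0, 4 and 14. B lineage markers summed to 16.6, 64.6 and 7.56 CPM (4 of 8 at 0 in every library, Cd79a among them), T and NK markers to 194, 105 and 155 CPM (5 of 8 at 0, Cd3e among them) and stroma and endothelium markers to 144, 191 and 128 CPM (5 of 7 at 0, Col1a1 and Cdh5 among them). Most of the T and NK sum was Nkg7 (188, 98.5 and 155 CPM), and most of the stroma and endothelium sum was Pecam1 (144, 191 and 98.2 CPM). What the differences in marker levels contribute to the levels of the import and carrier genes was not tested.

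Upstream sequence is shown for 3 members on which the results turn, in lower case, 5′ to 3′ on the strand of the gene, from RefSeq (GRCm38.p6) and ending before the first annotated base of the gene. Samm50 (chr15:84191990-84192239, plus strand) had no KO read, Tomm40 (chr7:19715443-19715679, minus strand) was higher in the KO library than in both WT libraries, and Slc25a3 (chr10:91124060-91124217, minus strand) was the most abundant member. Capitals mark matches, on either strand, to the motifs named after the lines.
Samm50: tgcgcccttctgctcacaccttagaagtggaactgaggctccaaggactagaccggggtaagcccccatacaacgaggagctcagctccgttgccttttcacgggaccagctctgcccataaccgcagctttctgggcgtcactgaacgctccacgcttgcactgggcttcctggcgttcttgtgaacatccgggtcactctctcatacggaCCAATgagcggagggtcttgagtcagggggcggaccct
Tomm40: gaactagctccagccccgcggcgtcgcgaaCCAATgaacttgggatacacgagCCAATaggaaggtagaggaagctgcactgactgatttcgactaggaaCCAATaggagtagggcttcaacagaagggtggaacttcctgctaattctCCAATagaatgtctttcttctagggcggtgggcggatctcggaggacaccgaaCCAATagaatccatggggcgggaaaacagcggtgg
Slc25a3: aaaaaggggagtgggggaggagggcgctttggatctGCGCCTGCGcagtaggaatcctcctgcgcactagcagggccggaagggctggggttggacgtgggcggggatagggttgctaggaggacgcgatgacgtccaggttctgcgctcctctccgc
The motifs searched were GCGCNTGCG for NRF1 and CCGGAAGT for GABP, factors known for driving genes of mitochondria, AAGATGGCG for YY1, CACGTG (E-box) and CCAAT, which was added after the sequences had been seen. The NRF1 form was also set then, by dropping the last letter of a longer form. Samm50 has 1 CCAAT match and Tomm40 has 5, while Slc25a3 has 1 NRF1 match, and a YY1 match after its start that is not shown. Promoter windows of 300 bases were matched for 66 of the 82 members. An NRF1 match was in 12.1% of these members and in 7.12% of all 27025 genes with a window, a GABP match in 12.1% and 4.31%, a YY1 match in 4.55% and 1.64%, an E-box in 19.7% and 8.09%, and CCAAT in 42.4% and 41.1%. The 27025 genes were not limited to protein-coding or expressed genes, whereas nearly all members are protein-coding, so these shares compare unlike sets. A match describes letters in the window and not a site in use.

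KO was set against the WT pair to ask which genes LKS cells express differently in CD73-deficient recipients. Members as a whole took a smaller share of the KO library, 0.430% of its counts against 0.526% and 0.565% in the WT libraries, and the KO share lay outside the WT range. The summed level was 5257 and 5653 CPM in WT and 4303 CPM in KO, 78.9% of the WT mean. With 3 libraries no permutation of the labels gives a p below 33.3%, so this difference has no test that could pass. Lower levels of these RNAs per cell and fewer cells that carry them cannot be told apart in bulk samples.

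Gene by gene, 57 members passed the filter on low counts and 0 passed the test in either direction (edgeR quasi-likelihood test, Benjamini-Hochberg adjustment, threshold 0.05). Over all 7984 tested genes 0.100% were called higher and 0% lower. Unadjusted p-values were under 0.05 for 0 members in the higher direction, against 3.53% of all tested genes, and for 5 in the lower direction (Samm50, Timm17b, Slc25a15, Slc25a38 and Slc25a39), 8.77% of the members against 6.51% of all. DESeq2 also called 0 members, against 0.138% of all tested genes higher and 0.0251% lower. It gave no adjusted p for some members, among them Timm17b, Slc25a15, Slc25a38 and Timm8b, so these could not be called. At an unadjusted p under 0.05 DESeq2 had 0 members higher and 6 lower (10.5%), against 3.98% and 9.23% of all. In simulated data of the same design, edgeR recovered few genes that were made lower. It recovered most of those made strongly higher, but few of those made moderately higher. Only genes above a minimum mean count were changed in the simulation. Members of low count, such as Slc25a10 with 2, 0 and 13 counts, are not covered by it. A count of 0 members therefore says little about falls, about moderate rises or, at low counts, about strong rises. With at least 10 counts in every library or 50 in any, 26 members were left. Of these, 0 had an unadjusted edgeR p under 0.05 in the higher direction and 2 in the lower (7.69%), against 2.56% and 5.96% of all genes under that filter. The KO value lay below both WT values for 28 members (49.1%, against 38.2% of all tested genes) and above both for 15 (26.3%, against 31.1%). It was at least 2-fold below both for 19 members (33.3%, against 23.8%) and at least 2-fold above both for 10 (17.5%, against 13.2%). With values under 3 counts raised to 3 counts, a reading added after the data were seen, 17 members (29.8%, against 17.4%) were at least 2-fold below both and 10 (17.5%, against 13.2%) at least 2-fold above both, Slc25a25 and Grpel1 no longer counting. The median log2 fold change was -0.50 over the tested members and -0.31 over all tested genes. The KO library was also the shallowest, and 12.3% of the tested members had 0 KO counts with a count in both WT libraries, against 9.69% of all tested genes.

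**Figure D1:**
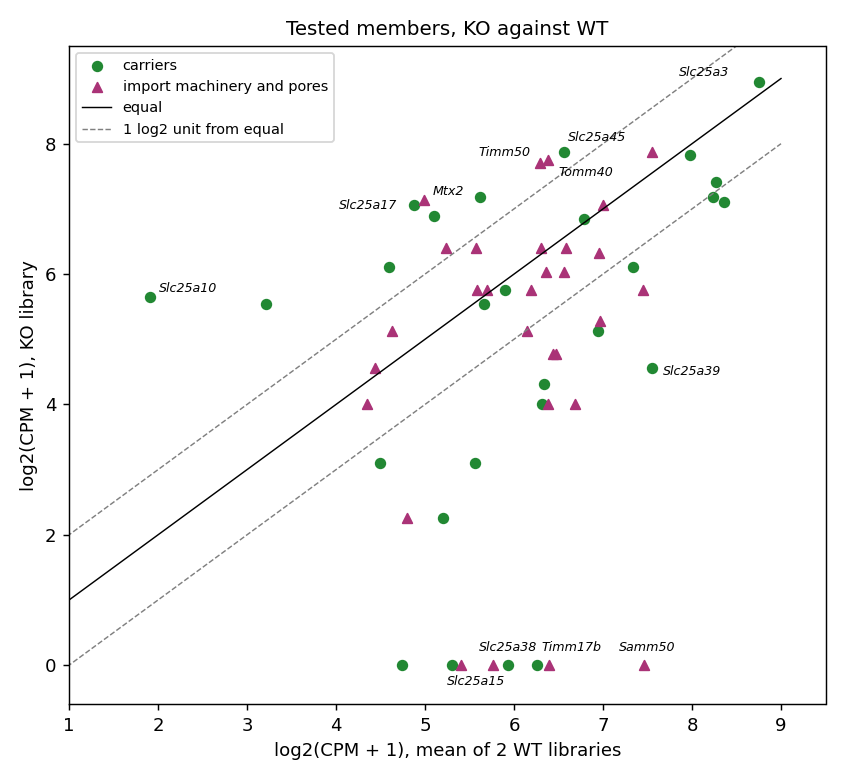
Each point is 1 of the 57 tested members, with the mean level of the 2 WT libraries on the x axis and the KO level on the y axis, both as log2(CPM + 1). Samm50 lies farthest to the right among the members at 0 in the KO library, and Tomm40, Timm50 and Slc25a45 lie above the equal line.

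The TOM genes differed in direction from each other. Tomm40, the channel of the complex, had 24, 32 and 57 counts (66.4, 98.5 and 215 CPM), and the KO value was more than 2-fold above both WT values (log2 fold change 1.42, SE 1.11, edgeR adjusted p 0.76). Its paralog Tomm40l followed the same order, with 12, 13 and 22 counts. Tomm34, a cytosolic cochaperone of import, had 66, 54 and 14 counts (183, 166 and 52.9 CPM), the WT values lying close together and the KO value well below them (log2 fold change -1.67, SE 1.24, edgeR adjusted p 0.74). Tomm5, a small subunit, had 35, 22 and 4 counts (96.8, 67.7 and 15.1 CPM), again with KO below both.

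Among the receptors that read the targeting signals, Tomm20 had 25, 23 and 9 counts (69.1, 70.8 and 34.0 CPM). Tomm22 had 31, 23 and 22 counts (85.7, 70.8 and 83.1 CPM), so that KO lay within the WT range. Tomm70a, the receptor for carrier proteins, had 72, 18 and 35 counts, and here the WT libraries differed from each other more than either did from KO. It shares exon bases with Nit2 on the opposite strand (3, 23 and 2 counts), as Vdac2 does with Comtd1 (0, 27 and 0). The small subunits Tomm6 (31, 25 and 17 counts) and Tomm7 (51, 34 and 21) had KO values slightly below both WT values in CPM. Tomm20l had no count in any library, and Tomm6os had 0, 2 and 0. The TOM genes summed to 960, 751 and 759 CPM, with the KO sum inside the WT range.

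Of the SAM genes, Samm50, the barrel protein that inserts other barrels into the outer membrane, had 60, 60 and 0 counts (166, 185 and 0 CPM). The WT libraries were alike and no KO read was found. Against a floor of 3 KO counts the fall was at least 15.5-fold from the WT mean, or at least 14.6-fold from WT replicate 1 alone. The exact interval, which also covers the counting error of WT, starts at 12.3-fold. Samm50 had the smallest p of all members and still did not pass (edgeR p 0.00037, adjusted p 0.096). Samm50 is protein-coding and lies on chromosome 15 of GRCm38 at 84192240 to 84216083. Mtx1, a metaxin that works with it, had 25, 44 and 4 counts (69.1, 135 and 15.1 CPM), KO being more than 2-fold below both WT values (log2 fold change -2.68, SE 1.78, edgeR adjusted p 0.68). Its partner Mtx2 went the other way, with 20, 2 and 37 counts (55.3, 6.15 and 140 CPM), although the WT libraries differed 9-fold between themselves. The 3 genes summed to 290, 326 and 155 CPM, and without Samm50 the order was turned, with the KO sum above the WT mean by 0.22 on the log2 scale. With all 3 genes the log2 ratio was -0.99, and -0.21 on summed FPKM, which weighs genes by length.

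The summed level of the VDAC pores differed little between the libraries, at 371, 366 and 344 CPM. Vdac1, the most abundant of them by count, had 59, 68 and 62 counts (163, 209 and 234 CPM). Vdac2 had 34, 31 and 22 counts (94.0, 95.4 and 83.1 CPM), a KO value below both WT values by a small margin (ratio of KO to pooled WT 0.88, 95% interval 0.52 to 1.44). Vdac3 had 41, 20 and 7 counts (113, 61.5 and 26.4 CPM), with KO more than 2-fold below both (log2 fold change -1.68, SE 1.72, edgeR adjusted p 0.82).

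**Figure D2:**
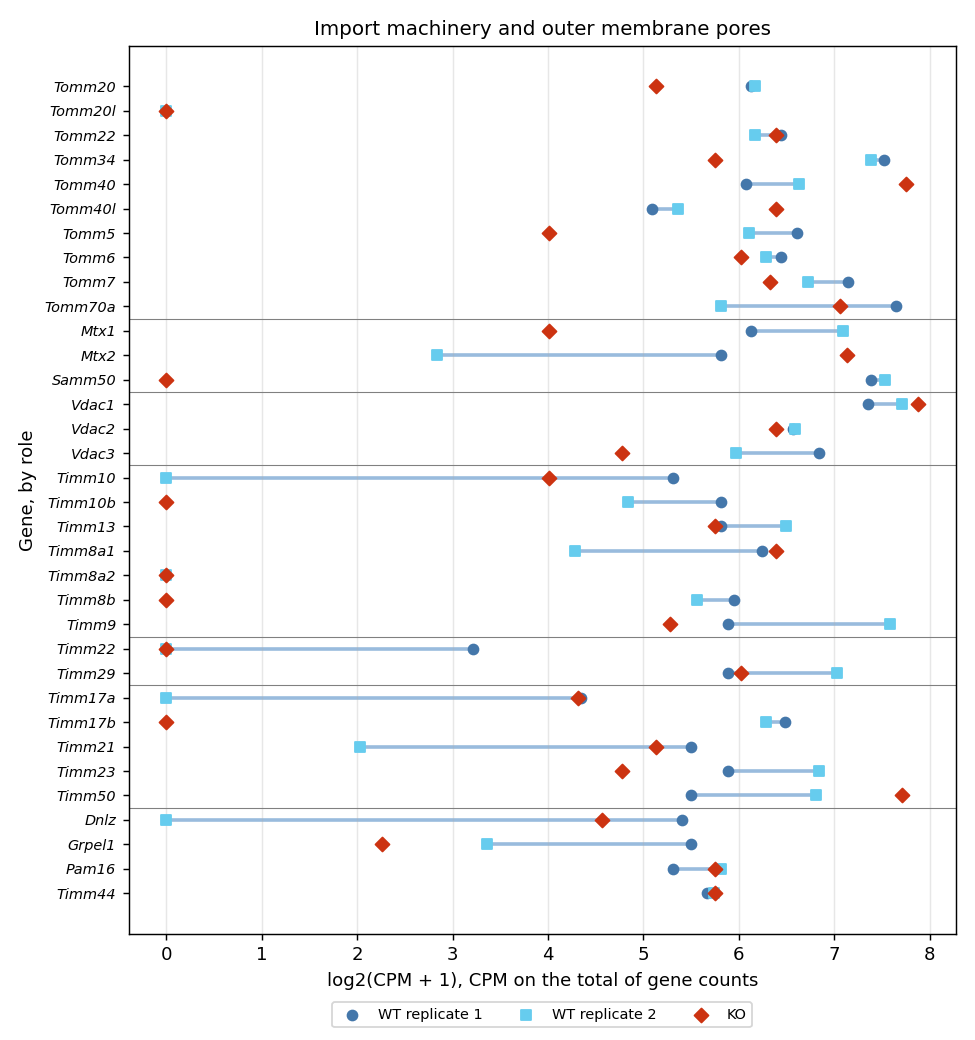
Points give log2(CPM + 1) of each import and pore gene in each library, a line joins the WT libraries, and grey rules part the roles (TOM, SAM and metaxins, VDAC, small TIM, TIM22, TIM23, motor). Samm50, Timm17b, Timm8b and Timm10b are at 0 in the KO library with a count in both WT libraries, and where 3 symbols coincide at 0 only the topmost shows.

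The small TIM chaperones of the space between the membranes summed to 343, 372 and 189 CPM, the KO sum being 52.8% of the WT mean. Timm8b had 22, 15 and 0 counts (60.8, 46.2 and 0 CPM), at least 4.72-fold lower in KO (edgeR adjusted p 0.53). Timm10b had 20, 9 and 0 counts, at least 3.66-fold lower (edgeR adjusted p 0.69). Against WT replicate 2 alone the folds were at least 4.07 for Timm8b and at least 2.44 for Timm10b. Both share exon bases with a gene on the opposite strand, Timm8b with Nkapd1 (0, 33 and 3 counts) and Timm10b with Arfip2 (103, 74 and 14). Strand use is not given in the sources, so a read in the shared bases may belong to either gene. Timm9, which forms hexamers with Timm10, had 21, 62 and 10 counts (58.1, 191 and 37.8 CPM). Much of the role sum in WT replicate 2 was therefore Timm9, and the closeness of the WT sums rests on it. Timm10 itself had 14, 0 and 4. Timm13, the partner of the Timm8 proteins, had 20, 29 and 14 counts, and Timm8a1 27, 6 and 22 (74.7, 18.5 and 83.1 CPM), the highest value being in KO. Timm8a2 had no count. Of the 6 tested genes 4 lay below both WT values and 1 above both, beside 38.2% and 31.1% of all tested genes, and 0 passed.

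TIM22, the insertase for carriers, was represented by its core Timm22, with 3, 0 and 0 counts, and by Timm29, with 21, 42 and 17 counts (58.1, 129 and 64.2 CPM), whose KO value lay between the WT values. The TIM23 genes summed to 254, 305 and 287 CPM, yet their members diverged. Timm50, the receptor that hands presequences to the channel, had 16, 36 and 55 counts (44.2, 111 and 208 CPM), KO being above both (log2 fold change 1.47, SE 1.13, edgeR adjusted p 0.76). Timm17b, a channel subunit, had 32, 25 and 0 counts (88.5, 76.9 and 0 CPM), close WT values with no KO read, at least 7.30-fold lower (edgeR p 0.012, adjusted p 0.29). Against WT replicate 2 alone Timm17b was at least 6.79-fold lower. Its paralog Timm17a had 7, 0 and 5 counts, too few for the test, with KO at the level of WT replicate 1 in CPM (19.4, 0 and 18.9). Timm23, the other channel protein, had 21, 37 and 7 counts (58.1, 114 and 26.4 CPM), KO being more than 2-fold below both. Timm21 had 16, 1 and 9 counts.

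The motor genes were near level where the WT libraries were alike. Timm44, which tethers the chaperone to the channel, had 18, 17 and 14 counts (49.8, 52.3 and 52.9 CPM), and Pam16, its regulatory subunit, 14, 18 and 14 (38.7, 55.4 and 52.9 CPM). Grpel1, the nucleotide exchange factor, had 16, 3 and 1 counts (ratio of KO to pooled WT 0.14, 95% interval 0.0033 to 0.86). That interval leaves out the spread between the WT libraries, and Grpel1 did not pass the test (log2 fold change -2.67, SE 4.56, edgeR adjusted p 0.91). Dnlz, which keeps the chaperone soluble, had 15, 0 and 6 counts, and shares exon bases with Gpsm1 on the opposite strand (63, 17 and 2 counts).

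Among the carriers, those for amino acids and glutathione had the lowest KO sum relative to WT. Their summed level was 647 and 677 CPM in the WT libraries and 178 CPM in KO, 26.8% of the WT mean, with the WT pair close together. Slc25a39, the glutathione carrier, had 56, 71 and 6 counts (155, 218 and 22.7 CPM), with a log2 fold change of -2.98 (SE 1.38, edgeR p 0.031, adjusted p 0.42). Slc25a38, a glycine carrier of haem synthesis, had 38, 15 and 0 counts (105, 46.2 and 0 CPM), at least 6.67-fold lower, or at least 4.07-fold against WT replicate 2 alone (edgeR p 0.016, adjusted p 0.32). Slc25a15, the ornithine carrier of the urea cycle, had 28, 14 and 0 counts (77.4, 43.1 and 0 CPM), at least 5.32-fold lower (edgeR p 0.036, adjusted p 0.45). Against WT replicate 2 alone Slc25a15 was at least 3.80-fold lower.

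For each of these 3 genes both WT libraries stood above KO. The same order held for Slc25a12, the aspartate and glutamate carrier of the malate shuttle, with 47, 37 and 9 counts (130, 114 and 34.0 CPM), and for Slc25a22, a glutamate carrier, with 57, 53 and 18 (158, 163 and 68.0 CPM). Slc25a40, a relative of Slc25a39, had 0, 30 and 2 counts, and Slc25a44, a carrier of branched-chain amino acids, had 6, 0 and 12, the highest value being in KO. In all, 5 of the 7 tested genes of this role were at least 2-fold below both WT values and 1 was at least 2-fold above both, beside 23.8% and 13.2% of all tested genes. Their median log2 fold change was -2.50, or -2.41 with genes at 0 in KO set to their bound, beside -0.31 for all tested genes. It rests on Slc25a40, and was -3.19 without WT replicate 1 and -1.89 without WT replicate 2. No gene of the role passed the test. Without Slc25a39, its most abundant gene, the KO sum was lower than the WT mean by 1.62 on the log2 scale, against 1.90 with it.

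**Figure D3:**
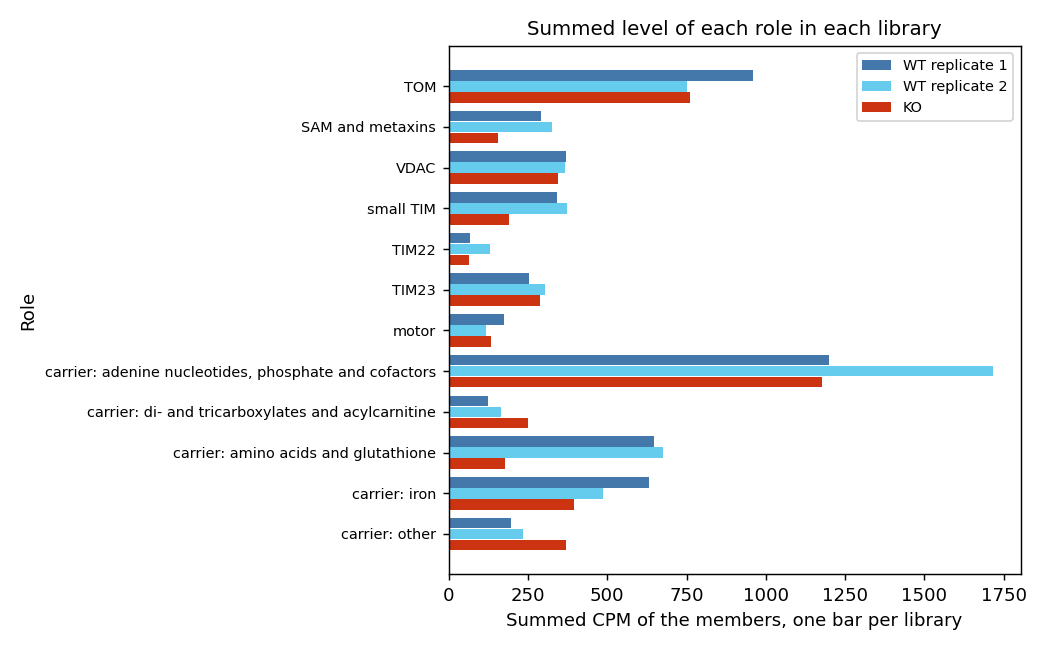
Bars give the summed CPM of the genes of each role, 1 bar per library, on an axis that starts at 0. Carriers for amino acids and glutathione stand at 647 and 677 CPM in the WT libraries and 178 CPM in KO, whereas the KO sums of TOM (759 CPM) and TIM23 (287 CPM) lie within the WT range.

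Carriers of nucleotides, phosphate and cofactors made up the largest role, with 1200, 1717 and 1179 CPM. Slc25a3, the phosphate carrier that feeds ATP synthase, was the most abundant member by count and held its level, with 156, 139 and 131 counts (431, 428 and 495 CPM, log2 fold change 0.24, SE 0.65, edgeR adjusted p 0.95). The ratio of KO to pooled WT was 1.15, with a 95% interval of 0.93 to 1.42. The ADP/ATP carriers did not follow it. Slc25a4 had 90, 115 and 38 counts (249, 354 and 144 CPM, log2 fold change -1.03, SE 0.91, edgeR adjusted p 0.79). Slc25a5 had 64, 156 and 36 counts (177, 480 and 136 CPM), so KO lay below both although the WT libraries differed widely. Slc25a4 and Slc25a5 are close paralogs, so reads may be split between them by the counting.

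Slc25a51, the NAD carrier, was level at 41, 34 and 30 counts (113, 105 and 113 CPM). Slc25a17, which serves peroxisomes, had 15, 5 and 35 counts (41.5, 15.4 and 132 CPM, log2 fold change 2.23, SE 1.54, edgeR adjusted p 0.70), KO being more than 2-fold above both. Slc25a36, a pyrimidine nucleotide carrier, had 9, 7 and 18 counts, also more than 2-fold above both in CPM. Of the calcium-regulated ATP and phosphate carriers, Slc25a23 had 36, 0 and 12 counts and Slc25a25 3, 14 and 0. For Slc25a25 a lower KO level rests on the second WT library, since the first had no more counts than the floor allows. In WT these 2 genes were each carried mostly by a different library.

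Carriers of organic acids had a higher KO sum than either WT library, at 124, 166 and 249 CPM. Slc25a11, which exchanges oxoglutarate and malate, had 17, 16 and 38 counts (47.0, 49.2 and 144 CPM), alike in WT and nearly 3-fold higher in KO (log2 fold change 1.61, SE 1.38, edgeR adjusted p 0.79). It shares exon bases with Rnf167 on the opposite strand, which had 67, 56 and 2 counts. Slc25a10, the dicarboxylate carrier, had 2, 0 and 13 counts, a ratio of KO to pooled WT of 16.9 with a 95% interval of 3.82 to 154. That interval leaves out the spread between the WT libraries, and Slc25a10 did not pass the test (log2 fold change 3.98, SE 4.06, edgeR adjusted p 0.82). Slc25a1, the citrate carrier, had 9, 30 and 14 counts, with KO between the WT values. Slc25a20, the carrier of acylcarnitines for fatty acid oxidation, had 17, 8 and 1 counts (ratio 0.10, 95% interval 0.0025 to 0.63). It did not pass the test either (log2 fold change -3.08, SE 3.68, edgeR adjusted p 0.84).

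The mitoferrins, which bring iron to haem and iron-sulfur synthesis, were among the most abundant carriers. Slc25a28 (mitoferrin-2) had 115, 96 and 45 counts (318, 295 and 170 CPM, log2 fold change -0.81, SE 0.88, edgeR adjusted p 0.83), KO being below both. Slc25a37 (mitoferrin-1), the form known from erythroid cells, had 113, 62 and 60 counts (312, 191 and 227 CPM), with KO within the WT range. Among erythroid markers, 5 of 11 were at 0 in every library (Hba-a1, Hba-a2, Hbb-bs and Klf1 among them), and the list summed to 453, 129 and 691 CPM. Most of each sum was Hbb-bt, at 418, 129 and 431 CPM, while Epor (3, 0 and 25 counts), Car1 (0, 0 and 20) and Slc4a1 (1, 0 and 11) made up much of the KO excess. The part of erythroid RNA in the levels of the iron carriers was not tested.

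The remaining carriers also had a KO sum above both WT sums, at 196, 234 and 370 CPM. Among them Slc25a45 had 31, 33 and 62 counts (85.7, 102 and 234 CPM, log2 fold change 1.36, SE 1.07, edgeR adjusted p 0.76), with KO more than 2-fold above both. Slc25a46, an outer membrane protein of mitochondrial shape, had 4, 18 and 31 counts (11.1, 55.4 and 117 CPM). Slc25a27, a relative of the uncoupling proteins, had 29, 25 and 4 counts (80.2, 76.9 and 15.1 CPM), the WT libraries being alike and KO about a 5-fold step below (log2 fold change -2.31, SE 1.90, edgeR adjusted p 0.78). The 22 carriers below the limits for naming had at most 25 counts in any library, and 13 of them had none. Slc25a26, the S-adenosylmethionine carrier, was the one that reached 25 and was singled out after its values were seen, with 0, 25 and 0 counts.

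**Figure D4:**
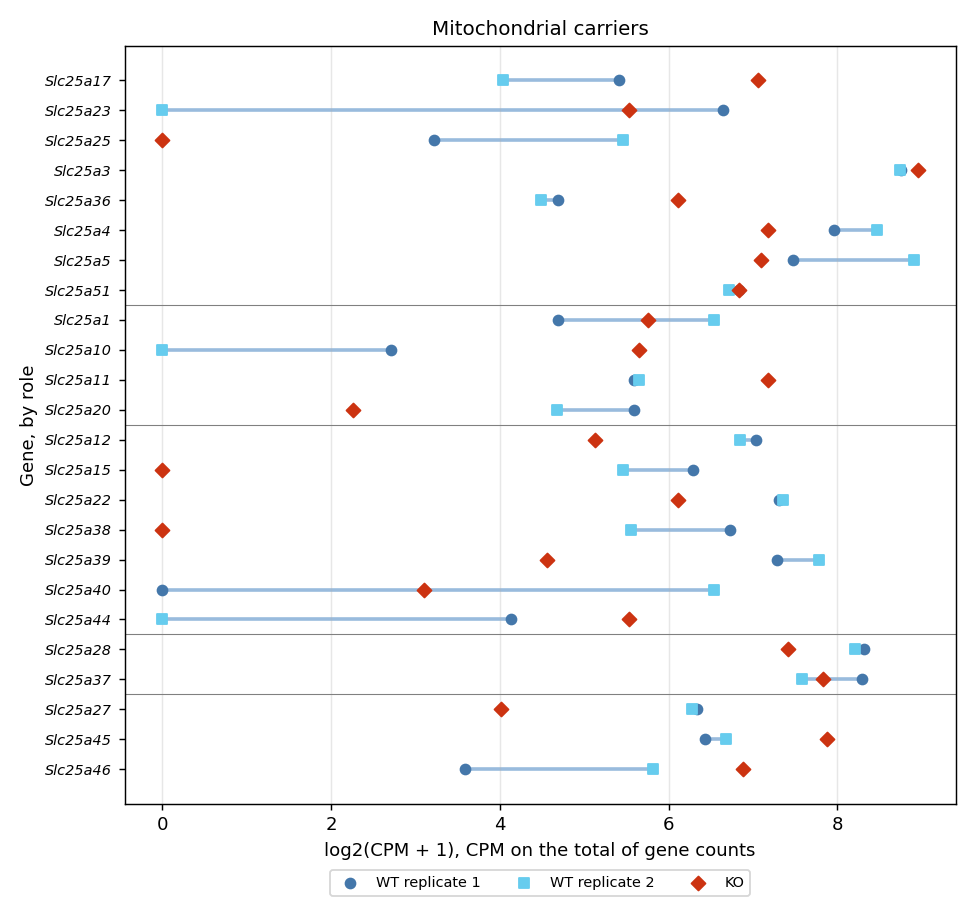
Points give log2(CPM + 1) of the carriers named in the text, other than Slc25a26 and Slc25a33, in each library, a line joins the WT libraries, and grey rules part the roles, from the top nucleotides and cofactors, organic acids, amino acids and glutathione, iron, and the rest. In the third block, KO points of Slc25a12, Slc25a15, Slc25a22, Slc25a38 and Slc25a39 lie left of both WT points, while Slc25a44 lies right of them.

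Per transcript length, on the deposited FPKM scale summed over the transcripts of a gene, Slc25a3 had 285, 284 and 330 FPKM, the highest KO level of the members. In WT the order of Slc25a3, Slc25a5 (137 and 374 FPKM in the WT libraries), Slc25a28 (245 and 228) and Slc25a4 (188 and 268) cannot be told from the spread, since Slc25a5 stood above Slc25a3 in the second WT library. In KO, Slc25a5, Slc25a28 and Slc25a4 stood at 106, 132 and 109 FPKM. The next KO levels after Slc25a3 were those of Timm50 (179 FPKM, from 37.7 and 94.7 in WT), Tomm40 (139, from 42.5 and 63.3) and Timm8a1 (138, from 123 and 27.96). Timm8b, a short gene with 137 and 104 FPKM in the WT libraries, was listed at 0 in KO.

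The WT libraries often disagreed on members of low count. Besides 8 members with 0 counts in KO and a count in both WT libraries, 8 had 0 counts in a WT library with a count in KO and in the other WT library: Dnlz, Timm10, Timm17a, Slc25a10, Slc25a23, Slc25a33 (0, 14 and 2 counts), Slc25a40 and Slc25a44. All but Timm17a of the latter were tested.

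Companion genes of the pathway were taken from 3 lists that the member rule did not cover. Of 25 tested genes for other import steps, presequence processing and matrix chaperones, 0 passed in either direction, with 12 below both WT values and 8 above both, beside 38.2% and 31.1% of all tested genes. Their median log2 fold change was -0.30, near the -0.31 of all tested genes. Hspa9, the motor chaperone itself, had 142, 120 and 65 counts (393, 369 and 246 CPM), while the folding chaperone Hspd1 had 142, 76 and 139 (393, 234 and 525 CPM). Pitrm1, which degrades cleaved presequences, had 69, 118 and 20 counts, and Dnaja3, a cochaperone, 13, 54 and 0 (edgeR adjusted p 0.25). Against the floor Dnaja3 was at least 8.92-fold lower in KO, or at least 3.17-fold with WT replicate 1 alone.

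Among 5 tested genes of the cristae-forming MICOS complex and its partners 0 passed (median -0.59). Minos1 had 45, 71 and 74 counts, Immt, its scaffold, 27, 29 and 9, and Chchd3 10, 41 and 13. Among 19 tested other inner membrane transporters 0 passed, with 9 below both WT values and 3 above both, beside 38.2% and 31.1% of all tested genes (median -0.61). Ucp2, an uncoupling protein of the same carrier fold, was more abundant than any member, with 274, 211 and 138 counts (758, 649 and 521 CPM, log2 fold change -0.39, SE 0.56, edgeR adjusted p 0.88). Mtch1 had 71, 83 and 38 counts, Smdt1, a subunit of the calcium uniporter, 103, 59 and 74, and Sfxn2 4, 24 and 0.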

How the data were processed

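Per the labels' protocols, an RNeasy micro kit gave the RNA and NEB reagents the libraries. Whole-number counts and FPKM values per RefSeq transcript were deposited. STAR and mm10 are named without versions in the submitters' processing notes, while for counting, FPKM and strand use the tool or setting is "not given in the sources used here". Isoforms repeat shared reads, so the gene count was the highest count over the transcripts of a symbol (42574 transcript rows in all), and CPM used the total of gene counts.

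All genes were fitted with edgeR 4.0.16 in R 4.3.3 (filterByExpr, TMM, quasi-likelihood F-test, Benjamini-Hochberg over all tested genes). With 1 residual degree of freedom, edgeR in effect pooled the spread over all genes (common biological coefficient of variation 0.81), and KO was assumed to vary like WT. SE is the absolute log2 fold change over the square root of F, not given where a group was at 0. A fold for such a gene is the WT mean CPM over the CPM of 3 KO counts. It leaves out the error of the WT mean. The exact interval of the ratio therefore starts at a smaller fold, 12.3 for Samm50 and 5.77 for Timm17b. Ratio intervals are exact binomial (Clopper-Pearson, 95%). Fitting was tested on simulated data, where few falls and few moderate rises were recovered among genes above a minimum mean count. Genes of lower count were not changed there. Alternatives used DESeq2 1.42.0 and, on log2(FPKM + 1), limma 3.58.1.

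Gene bounds are from RefSeq GRCm38.p6, and exon overlaps from GENCODE. The members, roles, lists and tests were chosen with earlier results of these data known. Named were all import and pore genes, carriers with at least 30 counts in some library or with at least 10 and a KO level 2-fold outside both WT values, and from the companion lists the 3 most abundant genes, any past the threshold, and those at 0 in KO with at least 20 WT counts. Of the genes under this rule and of the markers, 1 each is not reported here by name, though sums and counts include both.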

Additional observations from a re-analysis of the deposited data

How the results depend on the processing

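No member passed an adjusted p of 0.05 under any alternative that gave a test: DESeq2 size factors, the DESeq2 test, no filter, a stricter filter (at least 10 counts in every library or 50 in any), the mean count over transcripts, or FPKM with limma. The DESeq2 test gave no adjusted p for some members, which it therefore could not call. The stricter filter left 26 members, of which 2 had an unadjusted p under 0.05 (both lower), 8 lay above both WT values and 12 below both (30.8% and 46.2%, against 32.4% and 35.2% of all genes), and the median log2 fold change was -0.16 (-0.10 over all genes). Without a filter the median was -0.82 (-0.60 over all genes). Leaving out a WT library left 1 library a group and no test, and the median ranged from -0.74 without WT replicate 1 to -0.50 without WT replicate 2, beside -0.17 and -0.15 over all genes. The summed level of the members, -0.34 on the log2 scale, ranged from -0.39 without WT replicate 1 to -0.29 without WT replicate 2. On log2(FPKM + 1) the direction turned for Slc25a1 (0.14), Slc25a23 (1.40) and Timm10 (1.64), of which the latter 2 had 0 counts in WT replicate 2. The cause was not tested. Of the role sums, added after the data were seen, SAM and metaxins turned to 0.22 without Samm50. Of 466 values of single named genes under the alternatives, 17 changed sign (6 with FPKM, 11 without a WT library). Only the values without a WT library were also compared in size, and 9 more of these moved by more than the spread between the WT libraries. Under the other alternatives only the sign and the adjusted threshold were checked, so a change of size there was not counted. Without WT replicate 1 and without WT replicate 2, respectively, the log2 fold change was 5.80 and -0.83 for Dnlz, -0.015 and 0.48 for Pam16, -0.75 and 1.10 for Slc25a1, 6.78 and -1.10 for Slc25a23, 0.30 and -0.43 for Slc25a37, -3.49 and 4.33 for Slc25a40, 5.22 and -1.31 for Timm10, 3.35 and -0.35 for Timm21, -0.95 and 0.17 for Timm29, 0.28 and -0.015 for Tomm22, and 1.30 and -0.56 for Tomm70a. Where the WT library left had 0 counts (Dnlz, Slc25a23, Slc25a40 and Timm10), the fitted size depends on the prior count and is no bound. FPKM summed over transcripts was also added after the data were seen. No paired analysis was possible because there is only 1 KO library. Depth limits all results: genes under about 3 counts in a library cannot be told from 0.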
